A study of Homo sapiens with 54 samples.

Results

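The loss of TRA2B in LN319, an established human glioma cell line, was examined in 3 TRA2B KO and 3 Control KO libraries of the 54 libraries in the series. All genes with at least 1 TPM (a transcript's share of all the transcripts of its library, on a fixed scale) in at least 4 of the 15 LN319 libraries were taken, which kept 19303 of the 55906 names in the table. Both groups stably expressed luciferase (Luc) as the control of a TRA2B overexpression construct (TRA2B-OE). They were transduced with lentiviral vectors that carry Cas9 and a guide against TRA2B or a control locus, and were collected 7 days later. The study asked why some cancer cell lines need TRA2A although its paralog TRA2B is present, and it compared 18 conditions in 4 cell lines. The same LN319 table also holds 3 libraries each of Luc TRA2A KO, TRA2B-OE Control KO and TRA2B-OE TRA2A KO. Neither the guide used for RNA-seq nor whether the cells were a pool or a clone is given in the sources used here, and the source of the replicates (separate transductions or repeats of one) is not given either, so the p-values measure the spread between these libraries, which may be technical.

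TRA2A and TRA2B are paralogous RNA-binding proteins with arginine- and serine-rich domains. They bind GA-rich enhancers in exons and promote the inclusion of the exons that hold them. Each paralog can also bind its own pre-mRNA and that of the other, where inclusion of a poison exon (an exon with an early stop codon) sends the transcript to nonsense-mediated decay and so holds the level of the protein down. SR proteins, hnRNPs and the CLK and SRPK kinases work on the same exons, and several SR proteins control their own levels by poison exons of the same kind.

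The 3 TRA2B knockout guides of the study are shown as possible target sites, each with the 3-base PAM next to it in capitals. Which of them was used in these libraries is not given.
TRA2B sg2: tgacgcctgcgagtagacatGGG
TRA2B sg4: gtggaagtgctcacggatcgGGG
TRA2B sg5: aatactccaagacaacagttAGG
On GRCh38, TRA2B (ENSG00000136527.19) spans chr3:185914558-185938103 on the minus strand, and its canonical transcript ENST00000453386.7 has 9 exons. The target of sg2 is chr3:185925477-185925496 (plus strand) in exon 3, that of sg4 is chr3:185926693-185926712 (minus strand) in exon 2, and that of sg5 is chr3:185923950-185923969 (plus strand) in exon 4. All of these exons are coding there, and cuts by these guides would fall at positions 304, 76 and 352 of the 864 coding bases. Each guide matched the genome at 1 place. The closest stretch of TRA2A (ENSG00000164548.12, chr7:23504780-23532041, minus strand) next to an NGG differed from sg2 at 6 bases, from sg4 at 9 and from sg5 at 4.

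TRA2B was at 90.2, 83.5 and 89.1 TPM in the control libraries and at 30.6, 32.4 and 29.3 TPM in the TRA2B KO libraries, a mean of 87.6 ± 3.58 against 30.8 ± 1.58 TPM (SD, n = 3 each). The groups lay far apart and the KO level was 35.1% of control. The log2 fold change was -1.61 (SE 0.0933, adjusted p = 9.54e-07), where log2 fold changes, here and below, were taken from scaled TPM after adding 0.1, and the adjusted p-values come from limma over all 19303 genes. A TPM counts transcripts with and without a small insertion or deletion alike, so this value does not give the amount of intact protein. No library went against its label.

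TRA2A was at 101, 107 and 113 TPM in the controls and at 89.5, 84.8 and 97.1 TPM in TRA2B KO. All KO libraries were under all controls, and TRA2A fell by 0.35 on the log2 scale (SE 0.0809, adjusted p = 0.00396). The call was lost after quantile normalization (log2 fold change -0.18, adjusted p = 0.0782) and after the removal of the trend with transcript length and GC content described below (-0.19, adjusted p = 0.0618). Together TRA2A and TRA2B amounted to 194.5 ± 6.37 TPM in the controls, 121.3 ± 4.63 TPM in TRA2B KO and 139.4 ± 12.7 TPM in TRA2A KO (SD, n = 3). In the other LN319 conditions TRA2B was at 104 ± 10.3 TPM in TRA2A KO, 765 ± 81.5 TPM in TRA2B-OE Control KO and 975 ± 12.7 TPM in TRA2B-OE TRA2A KO. TRA2A was at 35.5 ± 2.44, 91.1 ± 2.80 and 48.1 ± 4.95 TPM in the same 3 conditions.

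**Figure D1:**
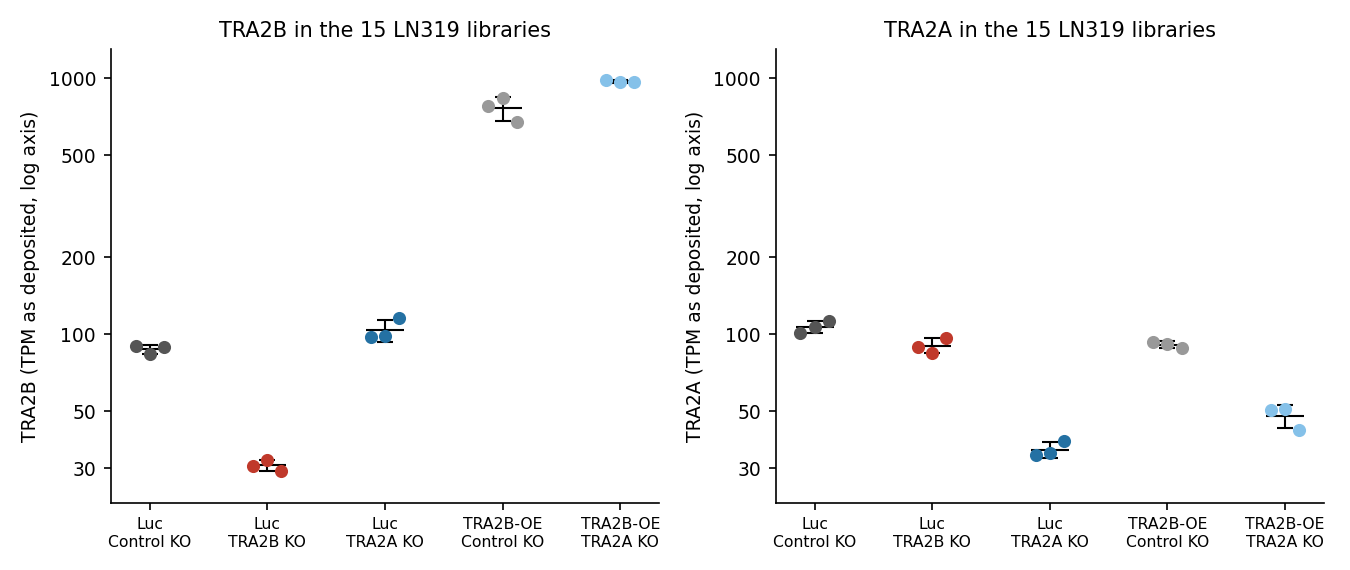
TRA2B (left) and TRA2A (right) in TPM as deposited, on a log axis, in the 15 LN319 libraries, with points for libraries, lines for means and bars for the SD (n = 3). The TRA2B KO libraries lie between 29.3 and 32.4 TPM of TRA2B, under every other library, and between 84.8 and 97.1 TPM of TRA2A.

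A gene was counted as differentially expressed (DEG) where its adjusted p was under 0.05 and it changed more than 2-fold in either direction (log2 fold change over 1 or under -1). TRA2B KO gave 757 DEGs, 3.92% of the 19303 genes, of which 583 were up (3.02%) and 174 down (0.901%). Without the limit on fold change 3598 genes were higher (18.6%) and 4633 lower (24.0%), so most lower genes changed by less than 2-fold. The libraries of the groups did not overlap in 55.3% of all genes. The up DEGs were mostly of low level, with a median of 1.35 TPM in the controls against 4.53 TPM for the down DEGs and 11.4 TPM for all genes tested. With a mean of at least 5 TPM in either group, 236 DEGs were up and 83 down. Up DEGs made up 77.0% of all DEGs with the scaling used, 86.9% without scaling and 50.2% once all libraries had the same quantiles (quantile normalization), so the balance of up and down rests on the scaling.

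The libraries of the groups also differed as wholes. Mitochondrially encoded transcripts took 12.1% to 12.8% of the TPM in the controls and 18.3% to 20.6% in TRA2B KO, and 13.2% to 15.03% in TRA2A KO. The 10 most abundant genes took 10.5% to 11.3% against 16.1% to 18.1%, and 17318 to 17743 against 18586 to 18657 genes reached 1 TPM. None of these ranges overlapped, with an exact permutation p of 0.1 each (two-sided), the smallest that 3 libraries against 3 can give. The scaling divided the KO libraries by 1.05 and the controls by 0.976 on average, which put the median of all genes 0.106 lower on the log2 scale than in the TPM as deposited. Changes below are relative to that scaling, and the part of these library differences in them was not tested.

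**Figure D2:**
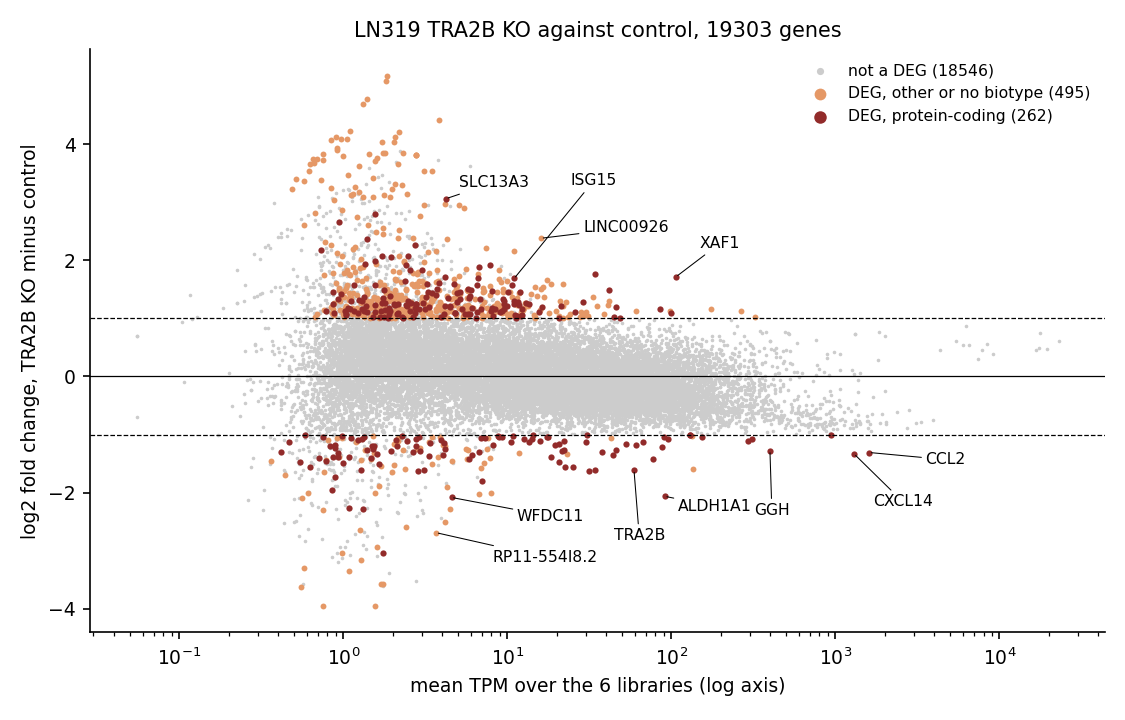
Log2 fold change of TRA2B KO minus control against the mean TPM of the 6 libraries (log axis), one point for each of the 19303 genes, with dashed lines at the limits of 1 and -1. The 757 DEGs are colored by biotype (262 protein-coding, 495 other or none), and those up lie mostly at low TPM.

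Among the up DEGs, 26.8% were protein-coding (156 genes), 65 were lncRNAs, 71 small or ribosomal RNAs and 37 pseudogenes, and 43.4% (253) had a name that was not found in the annotation. Of the down DEGs 60.9% were protein-coding (106 genes), against 67.9% of all genes tested. Protein-coding genes taken alone had 1.19% up and 0.809% down DEGs, and 17.2% of them were higher and 33.6% lower at an adjusted p under 0.05, with a median log2 fold change of -0.08.

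The protein-coding gene of largest increase was SLC13A3, which encodes a sodium-coupled transporter of dicarboxylates such as succinate. It was at 0.66, 0.995 and 0.688 TPM in the controls and at 8.30, 7.18 and 7.61 TPM in TRA2B KO (log2 fold change 3.06, SE 0.204, adjusted p = 3.57e-06). SLC13A3 was thus near the filter of 1 TPM in the controls and clearly above it in each KO library. In TRA2A KO its level was 5.34 ± 0.600 TPM, with a log2 fold change of 2.68 against the same controls. PDZK1, a scaffold protein of membrane transporters, rose from 1.37, 2.25 and 1.81 to 7.001, 5.68 and 6.93 TPM (1.71, adjusted p = 1.22e-04). STX16-NPEPL1, a readthrough transcript that shares its exons with both STX16 and NPEPL1, so that its reads are hard to assign, rose from 16.1, 16.4 and 11.6 to 49.0, 54.6 and 56.4 TPM (1.76, adjusted p = 8.51e-06).

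XAF1 and ISG15, both induced by interferon, were among the most raised genes. XAF1, a pro-apoptotic partner of the caspase inhibitor XIAP, was at 49.3, 63.3 and 27.2 TPM in the controls and at 248, 99.2 and 154 TPM in TRA2B KO (log2 fold change 1.72, SE 0.382, adjusted p = 0.00313). ISG15, a ubiquitin-like modifier, was at 4.50, 5.82 and 3.94 TPM and then at 24.5, 11.9 and 15.5 TPM (1.69, adjusted p = 0.00301). In both genes replicate 1 of TRA2B KO was the highest and replicate 2 the lowest of the KO libraries, and still above all controls.

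PTGS1, the constitutive cyclooxygenase COX-1, rose from 2.83, 2.52 and 3.36 to 10.1, 8.76 and 12.1 TPM (log2 fold change 1.69, adjusted p = 2.73e-04). SELPLG, the P-selectin ligand PSGL-1, rose from 2.99, 3.18 and 3.00 to 9.87, 9.998 and 10.03 TPM (1.57, adjusted p = 3.18e-05), with little spread in either group. GUCA1B, an activator of retinal guanylate cyclase, rose by 1.5 (2.81 ± 0.307 to 8.72 ± 0.448 TPM). The scaffold proteins GRIP2 and SRCIN1, of glutamate receptors and of SRC signaling, rose by 1.59 and 1.57. The zinc finger gene ZNF418 rose by 1.48, and SPATA1, GS1-259H13.2, WDR86 and CRIP3 rose by 1.88, 1.92, 1.6 and 1.51. All 15 were named because they had the largest fold changes among up DEGs that are protein-coding, have a mean of at least 5 TPM in either group and do not overlap between groups.

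Under the same rule ALDH1A1 was the clearest of the genes that fell. It encodes a retinaldehyde dehydrogenase that makes retinoic acid and is used as a marker of stem-like tumor cells. Its level was 158, 149 and 129 TPM in the controls and 37.1, 38.9 and 35.9 TPM in TRA2B KO, 25.6% of control (log2 fold change -2.06, SE 0.0950, adjusted p = 1.71e-07). WFDC11, a member of a family of protease inhibitors, fell from 6.84, 7.22 and 7.73 to 1.07, 1.84 and 2.74 TPM (-2.08, adjusted p = 8.02e-05). RGS7, which shortens G protein signaling, fell from 10.7, 10.4 and 11.1 to 3.19, 3.44 and 3.11 TPM (-1.80, adjusted p = 2.17e-05).

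Several of the genes that fell encode secreted proteins. CXCL14, a chemokine and one of the more abundant transcripts of these cells, was at 2039, 1938 and 1506 TPM in the controls and at 750, 767 and 808 TPM in TRA2B KO (log2 fold change -1.33, adjusted p = 6.75e-05). PTHLH, the parathyroid hormone-like hormone, fell from 46.5, 51.7 and 41.7 to 14.4, 20.5 and 14.3 TPM (-1.63, adjusted p = 1.00e-05). ENPP2, the autotaxin that makes lysophosphatidic acid, fell from 114, 116 and 101 to 44.3, 51.4 and 38.1 TPM (-1.42, adjusted p = 3.13e-05). The protease inhibitors A2M and SLPI fell by 1.47 and 1.55 on the log2 scale. SLPI had 1 control at 21.3 TPM beside the others at 42.4 and 49.0 TPM, and its KO libraries were at 11.1 to 14.2 TPM.

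The other genes of the 15 that fell have varied roles. CDH6, a cadherin, fell by 1.56 on the log2 scale (32.9 ± 5.15 to 11.9 ± 0.521 TPM). CRYAB, a small heat shock protein, fell by 1.6, from between 38.9 and 67.3 TPM in the controls to between 10.5 and 22.4 TPM. GAP43, of growing axons, fell by 1.35, KRT19 (keratin 19) by 1.35, the G protein subunit GNG10 by 1.36, STEAP1 by 1.42 and LYPD1 by 1.38. The 3 KO libraries of all 15 were under all 3 controls, which the rule requires.

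**Figure D3:**
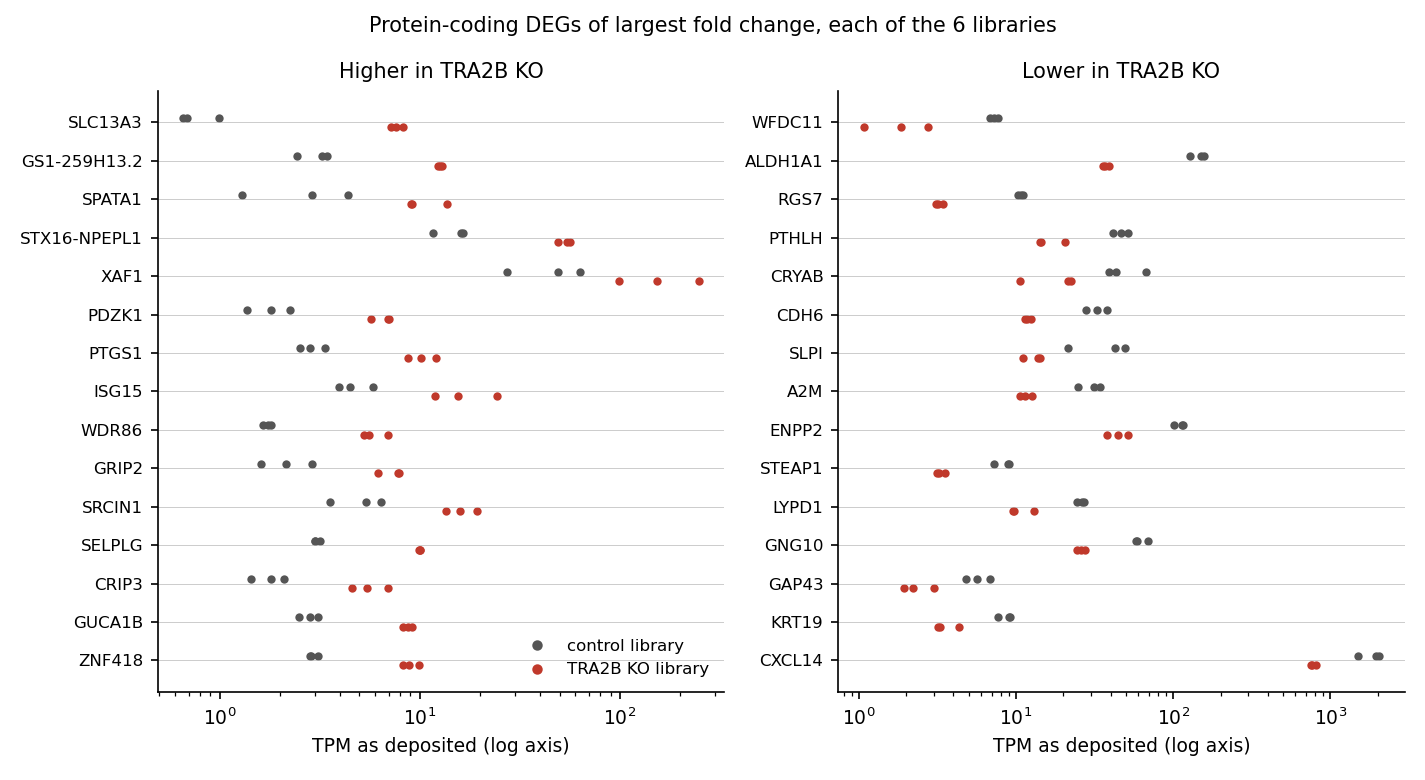
TPM as deposited (log axis) of the 15 up and 15 down protein-coding DEGs of largest fold change, one point for each of the 3 control and 3 TRA2B KO libraries. The choice of the genes fixes that the groups do not overlap, while the spread within them differs, wide in SPATA1, WFDC11 and XAF1 and narrow in SELPLG.

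The 5 genes of smallest p were RP11-554I8.2, ALDH1A1, LENG8, LINC00926 and GGH, with TRA2B at the same adjusted p as the last 3. RP11-554I8.2, a clone name that was not found in the annotation, fell from 6.17, 6.41 and 6.63 to 0.983, 0.895 and 1.07 TPM (log2 fold change -2.69, adjusted p = 4.74e-08). LINC00926, a lncRNA, rose from 5.71, 5.08 and 3.79 to 27.6, 26.3 and 27.95 TPM (2.38, adjusted p = 9.54e-07). LENG8, a nuclear RNA-processing factor, rose from 171, 176 and 162 to 311, 343 and 343 TPM (0.86, adjusted p = 9.54e-07). GGH, a lysosomal hydrolase of folate polyglutamates, fell from 571, 577 and 510 to 246, 256 and 234 TPM (-1.28, adjusted p = 9.54e-07).

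Outside the protein-coding genes, the largest changes under the same limits were those of RNU6-767P (4.41), RNU4-86P (3.53) and RP5-1033H22.2 (2.97) up, and of RP11-554I8.2, RP11-73M18.2 (-2.5) and SNORD114-3 (-2.28) down. The first pair are copies of spliceosomal small nuclear RNA genes, whose reads are hard to tell from those of other copies. RNU6-767P was listed at 0, 2.496 and 0 TPM in the controls and at 6.05, 9.81 and 4.60 TPM in TRA2B KO. A fold change against such values depends on the pseudocount.

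The splicing factors were described by lists of known members, beside 18.6% higher and 24.0% lower of all genes and a median log2 fold change over all genes of 0.02. Protein-coding genes had 17.2% higher and 33.6% lower, and the 2622 of them of highest abundance 14.95% higher and 55.8% lower. Many listed genes are abundant, so counts near these shares do not set a list apart. The same shares stand beside all lists and families below. Of 12 SR proteins 3 rose and 6 fell (median -0.19), but with the TPM as deposited 4 rose and 4 fell, and after quantile normalization 5 rose and 5 fell with a median of 0.07. SRSF3, which is known to repress and to activate exons and to control its own poison exon, fell from 462, 414 and 469 to 308, 312 and 308 TPM (-0.64, adjusted p = 8.80e-04). SRSF9 fell by 0.52, SRSF8 by 0.38, SRSF7 by 0.33 and SRSF4 by 0.23 on the log2 scale. SRSF5 rose from 381, 359 and 341 to 528, 500 and 505 TPM (0.40, adjusted p = 7.98e-04), SRSF11 rose by 0.27 and SRSF10, known as a splicing repressor when dephosphorylated, by 0.17. SRSF2 had a log2 fold change of -0.17 (adjusted p = 0.0460) that turned to 0.16 after quantile normalization, and SRSF1 (0.06), SRSF6 (0.01) and SRSF12 (-0.20) did not pass the test.

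Of 35 hnRNPs and other splicing regulators 5 rose and 20 fell (median -0.26), with 8 and 18 as deposited and 11 and 11 after quantile normalization. HNRNPA1, which represses many exons, fell from 1336, 1272 and 1378 to 869, 868 and 856 TPM (-0.73, adjusted p = 2.54e-04). HNRNPH2 and HNRNPA0 fell by 0.70 and 0.68, and MBNL2, a muscleblind-like regulator, by 0.58. The SR-related matrix proteins SRRM2 and SRRM1 rose by 0.44 and 0.38, and NOVA2 and TIA1 by 0.41 and 0.38. Of 7 SR protein kinases CLK1 rose by 0.35 (63.7, 61.0 and 56.5 to 90.0, 81.2 and 77.8 TPM) and CLK2 by 0.20, and none fell.

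Of 10 genes whose splicing TRA2 proteins are known to control, 1 rose and 5 fell (median -0.15), and without replicate 1 of TRA2B KO none rose. As deposited 3 rose and 5 fell (median -0.04), and after quantile normalization 2 and 4 (median -0.02). SMN1 and SMN2, whose exon 7 is a textbook TRA2B target, had log2 fold changes of -0.58 (adjusted p = 0.00296) and -0.40 (adjusted p = 0.0162). They are near-identical copies, so the split of reads between them is uncertain. NASP, a histone chaperone, fell by 0.57 (403 ± 15.1 to 291 ± 3.71 TPM). Among the genes for which the study had RT-PCR primers, the checkpoint kinase CHEK1 was at 40.1, 49.1 and 46.6 TPM in the controls and at 35.8, 33.1 and 30.9 TPM in TRA2B KO (-0.55, adjusted p = 5.52e-04). OFD1, a centriole protein, rose from 32.6, 32.3 and 30.02 to 41.1, 38.9 and 39.0 TPM (0.22, adjusted p = 0.0125). CEP192 (0.20, adjusted p = 0.0548) and CNTRL (-0.02, adjusted p = 0.856) did not pass the test. Exon inclusion itself was not measured from these gene-level values.

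The nonsense-mediated decay factors had 2 higher and 7 lower of 15 (median -0.07), and without replicate 3 of TRA2B KO 4 lower. The balance rested on the scaling, with 4 higher and 3 lower as deposited (median 0.03) and 4 and 4 after quantile normalization. The exon junction proteins MAGOH, RBM8A and EIF4A3 fell by 0.83, 0.77 and 0.67, and the kinase SMG1 and its partner SMG5 rose by 0.29 and 0.22. Of 13 snoRNA host genes, whose spliced RNAs are substrates of this decay, 2 rose and 4 fell (median -0.15), while 3 rose and 1 fell as deposited and 3 and 2 after quantile normalization (median 0.01). SNHG7 rose by 0.46 and EPB41L4A-AS1 fell by 0.54. The count that fell came to 1 without replicate 1 of Control KO, 2 without replicate 2 and 0 without replicate 3 of TRA2B KO, and the count that rose to 1 without replicate 2 or 3 of Control KO or replicate 1 or 2 of TRA2B KO.

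Of 52 G2/M genes of the cell cycle 3 rose and 35 fell (median log2 fold change -0.29), where 17.2% of all protein-coding genes were higher and 33.6% lower. As deposited 4 rose and 25 fell, and after quantile normalization 8 and 25. CKS1B, a partner of cyclin-dependent kinases, fell from 224, 202 and 225 to 139, 134 and 139 TPM (-0.77, adjusted p = 1.33e-04). UBE2C, which works with the anaphase-promoting complex, fell by 0.75, the tubulin TUBB4B by 0.66 and the spindle protein HMMR by 0.56. CBX5, NUF2 and SMC4 rose by 0.38, 0.27 and 0.24. No G2/M gene was a DEG.

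Of 43 S phase genes 4 rose and 18 fell (median -0.24), with 6 and 15 as deposited and 7 and 17 after quantile normalization, and without replicate 1 of TRA2B KO 2 rose. Among all protein-coding genes 17.2% rose and 33.6% fell. RRM2, a ribonucleotide reductase subunit, fell from 137, 128 and 143 to 70.3, 87.3 and 102 TPM (-0.77, adjusted p = 9.89e-04). TYMS (thymidylate synthase), FEN1 (flap endonuclease) and PCNA (the sliding clamp) fell by 0.70, 0.68 and 0.68. CDCA7, MCM4, CASP8AP2 and HELLS rose by 0.53, 0.48, 0.33 and 0.18.

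Of 23 p53 targets 7 rose and 4 fell (median 0.02), with 9 and 2 as deposited (median 0.13) and 6 and 5 after quantile normalization. CDKN1A, the inhibitor p21, fell from 36.4, 35.8 and 32.0 to 23.1, 25.4 and 26.8 TPM (-0.57, adjusted p = 8.22e-05), and the pore-forming BAX fell by 0.42, AEN by 0.27 and ZMAT3 by 0.27. BBC3 (PUMA) rose by 0.42, BTG2 by 0.39, FDXR by 0.29 and MDM2, the ubiquitin ligase of p53, by 0.27. The 7 that rose came to 4 without replicate 2 or replicate 3 of Control KO and to 3 without replicate 1 of TRA2B KO, and the 4 that fell to 2 without the latter. In the BCL2 family 2 rose and 7 fell of 13 (median -0.27), with 3 and 6 as deposited and 2 and 6 after quantile normalization. Among all protein-coding genes 17.2% rose and 33.6% fell. BCL2L1, which encodes the survival protein BCL-XL, fell from 68.5, 67.5 and 72.8 to 37.7, 44.1 and 43.3 TPM (-0.85, adjusted p = 3.13e-05), the killers BIK, BAD and BAK1 fell by 0.77, 0.52 and 0.45, and BCL2L11 (BIM) rose by 0.51. The count of BCL2 family genes that rose was 1 without replicate 3 of Control KO or replicate 2 of TRA2B KO.

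Centrosome and cilium genes had 9 higher and 4 lower of 47 (median 0.10), and 18 and 17 higher as deposited and after quantile normalization. CENPJ, a centriole elongation factor, rose from 40.5, 47.7 and 40.0 to 73.5, 67.2 and 68.4 TPM (0.60, adjusted p = 0.00253). NINL and CEP152 rose by 0.42 each and IFT172 by 0.38, while the intraflagellar transport genes IFT74, IFT57 and IFT52 fell by 0.52, 0.45 and 0.44. Of 41 DNA damage and repair genes 12 rose and 9 fell (median -0.04), with 16 and 5 as deposited (median 0.07) and 16 and 8 after quantile normalization (median 0.07). RAD52 rose from 20.1, 21.4 and 20.8 to 36.8, 37.5 and 41.2 TPM (0.78, adjusted p = 3.02e-04), FANCB by 0.88, XRCC2 by 0.51 and FANCM by 0.44. XRCC4, of nonhomologous end joining, fell by 0.74, RAD51C by 0.58 and PARP1 by 0.55.

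Interferon-stimulated genes had a high median, but most did not pass the test and the spread between libraries was wide. Type I interferon acts through factors such as STAT2 and IRF9, which bind an element of repeated GAAA in the promoters of such genes. Of 36 tested, 8 rose, where 18.6% of all genes were higher, and none fell (median log2 fold change 0.64), and 5 of the 8 were DEGs: XAF1, ISG15, IFI44, MX2 and DDX60. With the TPM as deposited 12 rose and after quantile normalization 10, and in neither did any fall. MX2, an antiviral GTPase, was at 5.47, 7.86 and 4.75 TPM in the controls and at 22.3, 12.5 and 19.1 TPM in TRA2B KO (1.45, adjusted p = 9.48e-04). IFI44 was at 26.2, 24.5 and 10.9 TPM and then at 94.2, 33.9 and 60.8 TPM (1.48, adjusted p = 0.0239). The other members that passed were DDX60 (1.22), HERC6 (0.99), IRF7 (0.97) and STAT2 (0.65). Large differences in abundant members did not pass the test, such as those of IFI27 (359 to 672 TPM, log2 fold change 0.75, adjusted p = 0.279) and MX1 (89.5 to 183 TPM, 0.91, adjusted p = 0.110).

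The order of the libraries was shared by these genes. The median of the 36 genes, relative to the mean of the controls, was 0.21, 0.18 and -0.45 on the log2 scale in the 3 controls and 1.19, 0.03 and 0.73 in the 3 TRA2B KO libraries. Replicate 2 of TRA2B KO thus lay within the range of the controls. Without it 19 members rose in place of 8, and without any other single library 6 or more. In TRA2A KO the medians were -0.63, -1.04 and -1.31, under the controls, and in TRA2B-OE Control KO they were -0.76, -0.70 and -0.32.

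Of the interferon-stimulated DEGs, 4 have an entry in the RefSeq promoter table (GRCh38.p14) used here, and the 250 bases before the start site are shown for the 3 of them that hold the motif GAAANNGAAA on either strand, with the motif in capitals.
ISG15: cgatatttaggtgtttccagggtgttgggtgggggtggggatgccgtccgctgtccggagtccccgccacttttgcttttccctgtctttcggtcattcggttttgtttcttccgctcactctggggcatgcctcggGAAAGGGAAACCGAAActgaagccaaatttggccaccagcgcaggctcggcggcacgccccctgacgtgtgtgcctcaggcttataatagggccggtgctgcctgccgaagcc
IFI44: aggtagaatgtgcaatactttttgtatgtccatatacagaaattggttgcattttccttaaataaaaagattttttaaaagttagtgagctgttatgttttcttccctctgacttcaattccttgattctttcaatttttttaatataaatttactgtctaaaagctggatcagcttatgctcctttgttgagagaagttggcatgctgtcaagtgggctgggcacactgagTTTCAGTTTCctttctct
DDX60: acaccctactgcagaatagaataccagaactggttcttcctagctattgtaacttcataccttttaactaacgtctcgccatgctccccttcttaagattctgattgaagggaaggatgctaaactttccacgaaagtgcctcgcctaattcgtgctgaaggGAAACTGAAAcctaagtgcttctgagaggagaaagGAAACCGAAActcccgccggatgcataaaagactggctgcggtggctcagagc
The ISG15 window is chr1:1013247-1013496 (plus strand), that of IFI44 is chr1:78649539-78649788 (plus strand) and that of DDX60 is chr4:168318753-168319002 (minus strand), each printed 5′ to 3′ on the strand of the gene. In ISG15 the capitals cover 2 overlapping matches, in IFI44 they hold the motif on the opposite strand, and DDX60 has 2 separate matches. XAF1 has no match in its windows, and MX2 has no entry. Of the 36 genes tested 27 have an entry, 20 of them (74.1%) with the motif in at least 1 of their windows, against 1014 of all 27305 genes of the table (3.71%). A match is a description of the letters and was not tested for binding, and the share belongs to the list as chosen, not to how its members moved.

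Inflammatory cytokines and chemokines had 2 higher and 5 lower of 17 (median -0.38), with 2 and 2 as deposited and 1 and 8 after quantile normalization (median -0.64). CCL2, the monocyte chemokine MCP-1, was at 2223, 2098 and 2419 TPM in the controls and at 965, 1022 and 940 TPM in TRA2B KO (-1.31, adjusted p = 9.25e-05). Its neighbor in function CCL7 (1.06 to 0.367 TPM, -1.40) and PTGS2, the inducible cyclooxygenase COX-2 (0.801 to 0.364 TPM, -1.01), were DEGs at low levels. CSF1 fell by 0.40, and IL11 and IL33 rose by 0.55 and 0.41. Without replicate 1 of either group 3 members fell, and without replicate 2 of either group 1 rose.

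AP-1 and immediate early genes had 6 higher and 3 lower of 20 (median -0.09), and 3 higher without replicate 3 of Control KO. As deposited 8 were higher and 2 lower (median 0.01), and after quantile normalization 7 and 2 (median 0.03). EGR3 rose from 1.17, 1.99 and 1.34 to 2.74, 3.89 and 4.23 TPM (1.13, adjusted p = 0.00421), and the nuclear receptors NR4A2 and NR4A1 rose by 0.46 and 0.38. FOSL1, the AP-1 subunit FRA-1, fell by 0.66 and IER3 by 0.34, and JUN had a log2 fold change of -0.17 that turned to 0.03 after quantile normalization. Of 16 ERK feedback genes 2 rose and 6 fell (median -0.13), with 3 and 4 as deposited and 3 and 6 after quantile normalization. The phosphatases DUSP5, DUSP1, DUSP4 and DUSP6 fell by 0.60, 0.55, 0.51 and 0.32, and SPRY4 and SPRED3 rose by 0.47 and 0.41. Without replicate 1 of either group 1 of these rose.

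The extracellular matrix showed changes in both directions. Of 31 collagens and other matrix proteins 12 rose and 7 fell (median 0.20), and 4 fell as deposited or without replicate 3 of TRA2B KO. BGN (biglycan) rose from 3.11, 4.10 and 3.22 to 8.02, 7.03 and 8.96 TPM (1.08, adjusted p = 0.00375), and ELN (elastin) from 10.8, 10.5 and 13.9 to 25.9, 22.4 and 26.5 TPM (0.99, adjusted p = 0.00386). COL5A1 and COL4A1 rose by 0.91 and 0.66. LOX, which crosslinks collagen and elastin, fell from 4.98, 5.68 and 6.06 to 2.67, 2.58 and 2.66 TPM (-1.15, adjusted p = 2.34e-04), and COL8A1, COL11A1 and THBS2 fell by 0.95, 0.81 and 0.56.

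Of 19 integrins and laminins 3 rose and 5 fell (median -0.11). LAMA5, ITGA7 and ITGA5 rose by 0.58, 0.52 and 0.22, and ITGA11 and ITGB1 fell by 0.86 and 0.33. As deposited 6 rose and 2 fell, after quantile normalization 5 and 2, and 2 fell without replicate 2 of Control KO or any replicate of TRA2B KO. Of 21 matrix proteases and inhibitors none rose and 10 fell (median -0.24), with 7 and 8 lower as deposited and after quantile normalization. PLAU (urokinase) fell from 54.5, 54.8 and 56.6 to 35.2, 38.3 and 34.8 TPM (-0.72, adjusted p = 1.38e-04), ADAM9 by 0.71, and the inhibitors TIMP3 and TIMP1 by 0.67 and 0.66.

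Actin and contractile genes had 1 higher and 15 lower of 23 (median -0.49), with 15 and 12 lower as deposited and after quantile normalization. Among all protein-coding genes 33.6% fell, and 55.8% among the 2622 of highest abundance. TAGLN2 (transgelin 2) fell from 744, 684 and 803 to 382, 424 and 406 TPM (-0.99, adjusted p = 3.83e-05), and MYL6, the myosin light chain of nonmuscle cells, fell from 1145, 1012 and 1208 to 600, 634 and 650 TPM (-0.94, adjusted p = 3.10e-04). MYL9 and ANKRD1, of lower level, were DEGs with log2 fold changes of -1.30 and -1.28. TPM4 (tropomyosin 4) rose by 0.34, a call that was lost without replicate 1 or 2 of Control KO or replicate 2 of TRA2B KO.

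The heat shock proteins fell almost as a whole, 16 of 17 with none higher (median -0.43), and 15 as deposited, but 7 after quantile normalization. Among all protein-coding genes 33.6% fell, and 55.8% among the 2622 of highest abundance. HSPB8, a small heat shock protein of chaperone-assisted autophagy, fell from 39.7, 37.1 and 33.1 to 22.3, 21.5 and 21.6 TPM (-0.85, adjusted p = 3.18e-05). HSPE1, the mitochondrial HSP10, fell by 0.76, the cochaperone DNAJA1 by 0.60 and HSP90AB1 by 0.57, and DNAJB4 (-0.08, adjusted p = 0.629) did not pass. HSPA1A and HSPA1B are near-identical, so their reads cannot be split with confidence.

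NRF2 targets, the genes of the antioxidant response, had none higher and 13 lower of 19 (median -0.46), with 11 and 13 lower as deposited and after quantile normalization. Among all protein-coding genes 33.6% fell, and 55.8% among the 2622 of highest abundance. FTH1 (ferritin heavy chain) fell from 2266, 2128 and 2404 to 1500, 1518 and 1686 TPM (-0.64, adjusted p = 6.30e-04). SRXN1 (sulfiredoxin) and TXNRD1 (thioredoxin reductase) fell by 0.65 and 0.59, and the pentose phosphate enzymes PGD and TALDO1 by 0.58 each. AKR1C1 was a DEG at low level (1.35 to 0.519 TPM, log2 fold change -1.39). The metallothioneins, which bind zinc and copper, had 3 lower of 5 (median -0.53) and 2 under either other scaling, among them MT2A at -0.63 (717 to 502 TPM).

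Of 31 hypoxia and glycolysis genes 4 rose and 19 fell (median -0.46), and 18 fell as deposited and after quantile normalization. Among all protein-coding genes 17.2% rose and 33.6% fell, and 55.8% fell among the 2622 of highest abundance. LDHA (lactate dehydrogenase) fell from 381, 333 and 383 to 204, 199 and 212 TPM (-0.94, adjusted p = 1.12e-04). GAPDH fell from 2557, 2361 and 2691 to 1485, 1532 and 1605 TPM (-0.83), ALDOA by 0.81 and the prolyl hydroxylase EGLN3 by 0.92. VEGFA, the angiogenic factor, rose from 169, 194 and 150 to 314, 291 and 318 TPM (0.75, adjusted p = 7.47e-05), and PFKFB4, ENO2 and SLC2A3 rose by 0.37, 0.34 and 0.27. The count that rose was 2 after quantile normalization or without replicate 1 or 3 of either group.

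ATF4 and ER stress genes had 1 higher and 9 lower of 24 (median -0.17). SDF2L1, an ER chaperone partner, fell from 77.9, 86.2 and 82.3 to 41.0, 48.1 and 52.4 TPM (-0.91, adjusted p = 2.40e-04), CALR by 0.51, SLC7A11 by 0.49 and XBP1 by 0.42, while ASNS (asparagine synthetase) rose by 0.49. As deposited 2 rose and 5 fell, and after quantile normalization 3 and 6. Sterol and fatty acid synthesis had 2 higher and 12 lower of 32 (median -0.16). SC5D, a late enzyme of cholesterol synthesis, was a DEG (116, 117 and 128 to 56.7, 61.1 and 50.5 TPM, -1.21, adjusted p = 6.66e-05), PMVK, NSDHL and CYP51A1 fell by 0.74, 0.64 and 0.57, and SREBF1 rose by 0.40. As deposited 5 of these rose and after quantile normalization 6, and 1 without replicate 1 of either group or replicate 3 of TRA2B KO.

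All 15 mitochondrially encoded transcripts rose (median 0.49), as they did with the TPM as deposited, but after quantile normalization 4 rose and 1 fell. MT-CO3, a subunit of cytochrome c oxidase, was at 12579, 13014 and 12181 TPM in the controls and at 24689, 22815 and 20636 TPM in TRA2B KO (0.74, adjusted p = 3.90e-04). MT-ND6, a complex I subunit encoded on the other strand, was at 1269, 1311 and 1315 TPM and then at 2108, 2671 and 2360 TPM (0.76, adjusted p = 6.15e-04). In TRA2A KO MT-ND6 was higher as well (log2 fold change 0.72 against the same controls) and MT-CO3 less so (0.23). Of 11 clustered histone genes 1 rose and 3 fell (median -0.05), with 2 and 2 as deposited (median 0.06) and 1 and 2 after quantile normalization. HIST1H2BD rose by 0.61 and HIST1H2BJ, HIST1H2BK and HIST1H1C fell by 0.73, 0.70 and 0.39, and 2 rose without replicate 1 or 2 of Control KO.

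**Figure D4:**
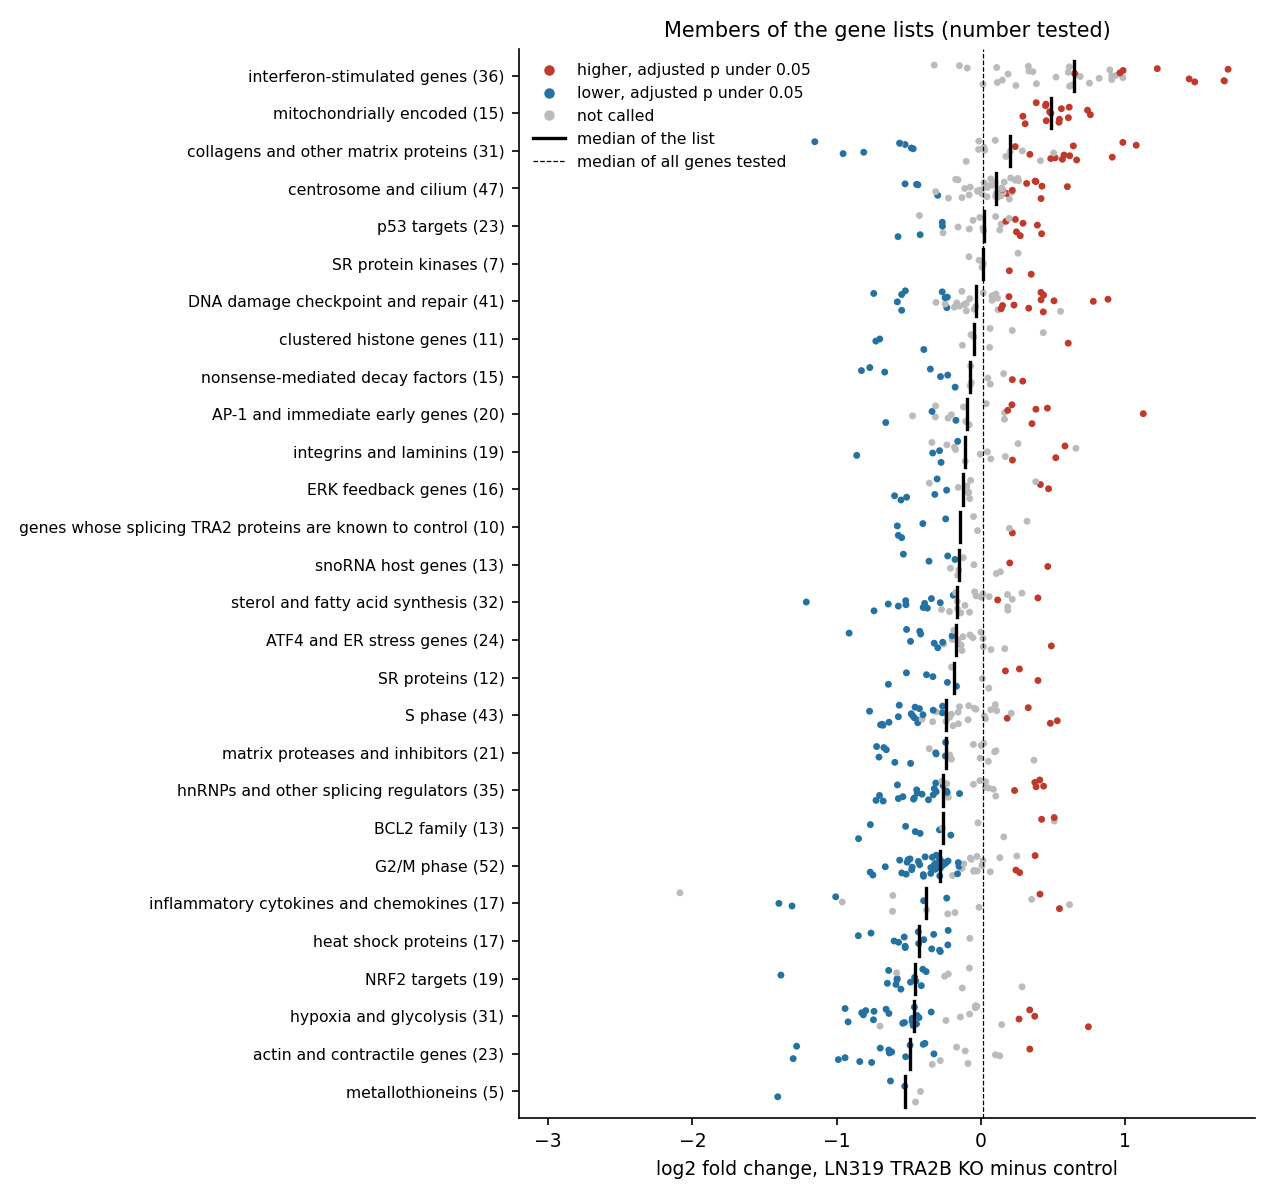
Log2 fold change of TRA2B KO minus control for each tested member (points) of 28 gene lists, ordered by the list's median (thick bars), with the median of all genes as a dashed line. Interferon-stimulated and mitochondrially encoded genes lie highest and metallothioneins, actin, hypoxia and NRF2 genes lowest, while the balance of SR proteins, hnRNPs, heat shock proteins and mitochondrially encoded genes shifts with quantile normalization.

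Families taken by their names, chosen after their values were seen, are described without a test of their own. Protein-coding genes as a whole had 17.2% higher and 33.6% lower, and the 2622 of highest abundance 14.95% higher and 55.8% lower. Of 82 ribosomal protein genes 79 fell and none rose (median -0.77, and -0.66 as deposited and -0.29 after quantile normalization), while their median in TRA2A KO was 0.03. Of 36 proteasome subunits 35 fell (median -0.56), and of 37 complex I subunits encoded in the nucleus 30 fell (median -0.55), with none higher in either. Of 20 keratins 15 fell and none rose (median -0.74). KRT17 was at 86.9, 81.1 and 78.3 TPM in the controls and at 37.9, 40.0 and 38.6 TPM in TRA2B KO (-1.19, adjusted p = 3.19e-05), and KRT14, KRT19, KRT23 and KRT6A were DEGs too. Of 459 ZNF genes 169 rose and 35 fell (median 0.24). In the lists and families where limma called no member in a direction, none passed in that direction at an unadjusted p under 0.05 either, apart from 1 of the matrix proteases and inhibitors that was higher.

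The direction of change followed the length of the transcript. Protein-coding genes were put into 5 groups of 2622 by the length of the canonical transcript, with medians of 1260, 2232, 3294, 4702 and 7614 bases. Their median log2 fold changes were -0.31, -0.13, -0.07, -0.02 and 0.03, and in the shortest group 50.04% fell and 10.4% rose against 20.5% and 21.97% in the longest. By the number of exons the medians ran from -0.19 at 3 exons to 0.08 at 23, and by abundance from 0.13 in the lowest group to -0.26 in the highest. In the group of highest abundance 55.8% fell and 14.95% rose. In TRA2A KO the medians by length lay between -0.01 and 0.01.

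This was a property of each library. Relative to the mean of the controls, the median of the shortest group was between -0.32 and -0.30 in the 3 TRA2B KO libraries, between -0.07 and 0.05 in the controls and between -0.07 and 0.10 in TRA2A KO. In TRA2B-OE Control KO, where TRA2B was high, it ran from -0.26 to -0.05, so a library without a TRA2B guide came near the KO libraries. After removal of the trend with length and GC content (an alternative chosen after seeing the data, over the 15766 genes with an annotation) 473 DEGs were counted, 328 up and 145 down. That fit left out 253 up and 41 down DEGs of the main count, which have no annotation. With the trend removed, 16 heat shock proteins, 14 NRF2 targets, 20 hypoxia and glycolysis genes and 26 G2/M genes were lower. In the same fit 11 interferon-stimulated and 14 mitochondrially encoded genes were higher, and the ribosomal proteins had a median of -0.71. RNA quality was not measured in these data.

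**Figure D5:**
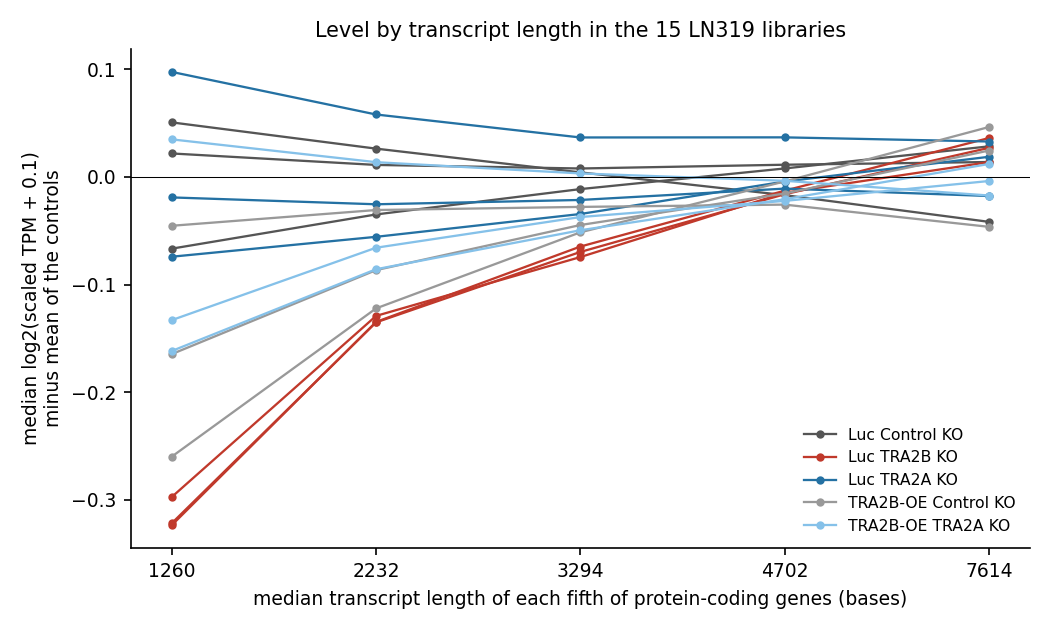
Median level (log2 of scaled TPM + 0.1, minus the mean of the controls) of protein-coding genes in 5 groups of transcript length, one line for each of the 15 LN319 libraries. The 3 TRA2B KO libraries run from between -0.32 and -0.30 in the shortest group to between 0.01 and 0.04 in the longest, and 1 TRA2B-OE Control KO library starts at -0.26.

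TRA2B KO was also set directly against TRA2A KO, to ask where loss of one paralog differs from loss of the other in these cells. There were 1224 DEGs (6.34%), of which 786 were higher in TRA2B KO (4.07%) and 438 lower (2.27%), and 21% of genes were higher and 26.1% lower at an adjusted p under 0.05. The comparisons of each KO with Control KO share the 3 control libraries, so their fold changes are given only side by side. TRA2B was lower (log2 fold change -1.89) and TRA2A higher (1.2) in TRA2B KO than in TRA2A KO, as the labels require.

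The interferon-stimulated genes stood out in this comparison, with 31 of 36 higher in TRA2B KO and none lower, at an unadjusted p under 0.05 either (median 1.77). Against the controls 20 of the 36 were lower in TRA2A KO and none higher (median -0.97), while 8 were higher in TRA2B KO and none lower (median 0.64). Of all 19303 genes 1316 were higher and 1436 lower in TRA2A KO against the controls. IFI44L was highest of the named genes (log2 fold change 4.13, adjusted p = 6.59e-04), with 1.69 (adjusted p = 0.0920) in TRA2B KO and -2.44 in TRA2A KO against the controls. XAF1 differed by 3.19 and IFI44 by 2.90. XAF1 was at 24.4, 15.5 and 9.41 TPM in TRA2A KO, under every control, and at 99.2 TPM or more in TRA2B KO. SALL3, a zinc finger transcription factor, and CA4, a carbonic anhydrase at the cell surface, differed by 3.23 and 3.06. SALL3 did not pass against the controls (1.3, adjusted p = 0.107).

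ALDH1A1 was lower in TRA2B KO than in TRA2A KO (-2.46, adjusted p = 1.86e-08), where it was at 186 ± 13.3 TPM. C5orf46 (-3.73), KCNK1, a potassium channel (-2.47), and CPA4, a carboxypeptidase (-2.30), were lower too. CPA4 was at 15.1 to 20.2 TPM in the controls and 14.3 to 21.2 TPM in TRA2B KO, with 2.07 in TRA2A KO against the controls, so the difference lay in the TRA2A KO libraries as well. RPL36A-HNRNPH2, a readthrough transcript that shares its reads with RPL36A and HNRNPH2, differed by -3.67. NRF2 targets had none higher and 14 lower of 19 (median -0.95), ATF4 and ER stress genes 1 and 19 of 24, and heat shock proteins none and 15 of 17. Against the controls, 8, 15 and 2 members of these lists were higher in TRA2A KO and none lower (medians 0.45, 0.33 and 0.09). In TRA2B KO 13, 9 and 16 were lower against the controls (medians -0.46, -0.17 and -0.43), and 1 ATF4 and ER stress gene was higher. Of the up DEGs named above, which were chosen on these same TRA2B KO libraries, SLC13A3 (0.38, adjusted p = 0.149), PDZK1 (0.53, adjusted p = 0.0706) and GUCA1B (0.10, adjusted p = 0.479) did not differ by the test. A2M was higher in TRA2B KO (0.73), at 11.5 ± 0.985 against 6.23 ± 0.525 TPM.

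LN229, the other glioma line with a TRA2B KO of the same design, gave a weaker loss and far fewer called changes in its own table. TRA2B was at 222 ± 17.99 TPM in its controls and 147 ± 3.69 TPM in its TRA2B KO, 66.0% of control (log2 fold change -0.64, adjusted p = 0.0343). TRA2A rose there from 109 ± 3.31 to 169 ± 2.11 TPM (0.59, adjusted p = 0.00553). With 0.135% of 18490 genes called there were 25 DEGs. Some genes spread widely over the LN229 controls, with the lowest control near the KO libraries and far from the control mean. Their large fold changes did not pass limma. CPA4 was at 9.79 to 56.9 TPM in the controls (mean 39.7) and 7.90 to 9.70 TPM in TRA2B KO (-1.885, adjusted p = 0.0935). PTHLH was at 11.3 to 44.8 (mean 33.15) and 8.97 to 9.79 TPM (-1.6, adjusted p = 0.117). FOSL1 was at 184 to 429 (mean 346) and 170 to 174 TPM (-0.95, adjusted p = 0.103). Whether the same control library was the outlying one in these genes, and the part of this spread in the low count, were not tested. Of the 16425 genes tested in both lines, 508 were DEGs in LN319 and 21 in LN229, and 5 were shared in the same direction, 0.984% of the former and 23.8% of the latter. They were LINC00926, STX16-NPEPL1, RP11-382D8.3, RP11-66D17.5 and RP11-73M18.2, of which RP11-382D8.3 and RP11-66D17.5 are named only because they are shared. STX16-NPEPL1 had a log2 fold change of 1.09 and LINC00926 of 1.2 in LN229 (adjusted p = 0.0116 each). The interferon-stimulated genes of LN229 had a median of 0.86, and limma called none of 36 after adjustment (0.568% of all genes were called there without a limit on fold change), while at an unadjusted p under 0.05 27 were higher and 1 lower (4302 of all 18490 genes passed that limit).

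In A549 and NCI-H23, lung cancer lines with CRISPRi knockdown in place of KO, TRA2B was at 9.68% and 10.6% of control. There were 38 DEGs (0.232%) and 18 DEGs (0.110%). Of those tested in both lines, 6 were shared between A549 and LN319 (1.52% of the LN319 DEGs and 6 of 30 in A549), 5 of them in the same direction, and 2 between NCI-H23 and LN319 (0.483% and 12.5%), TRA2B among them in each. SELPLG was up in A549 as in LN319 (2.38, adjusted p = 0.00740), and KRT19 was up in A549 (1.92, adjusted p = 0.00780) and down in LN319. These lines differ from LN319 in the method, the day of collection and the size of the TRA2B loss. The study also classed LN319 and NCI-H23 as TRA2A-dependent, and LN229 and A549 as TRA2A-independent. Such differences between lines cannot be told apart here.

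As a check of the label, markers of cell types were read in the 6 libraries. Mesenchymal markers were abundant, with VIM (vimentin) at 3265 TPM in the controls and 2357 TPM in TRA2B KO, CD44 at 2097 and 1909 TPM and FN1 at 1506 and 1174 TPM. Of 14 astrocyte and glioma markers 8 had a mean of 1 TPM or more over the 6 libraries. SOX2 (402 and 482 TPM), PDGFRA (179 and 218 TPM) and SOX9 (36.6 and 45.3 TPM) led them, NES was at 7.55 and 14.0 TPM and EGFR at 5.08 and 5.95 TPM. GFAP was at 2.13 and 2.98 TPM and AQP4 at 2.02 and 1.83 TPM, and OLIG1, OLIG2 and SLC1A3 were near 0. Of 4 oligodendrocyte markers MBP was at 10.9 and 10.4 TPM and the others under 1 TPM. Of 8 epithelial markers 7 had a mean of 1 TPM or more over the 6 libraries and 4 a mean of 10 TPM or more. CDH1 (E-cadherin) was at 123 and 121 TPM, KRT8 at 120 and 92.8 TPM, KRT18 at 97.0 and 72.6 TPM and ESRP1 at 14.0 and 12.5 TPM. EPCAM, the only one under 1 TPM, was at 0.394 and 0.865 TPM. Of 8 neuron markers 4 had a mean of 1 TPM or more, with TUBB3 at 95.0 and 79.5 TPM and GAD1 at 23.15 and 25.9 TPM. Of 7 immune markers CD68 (25.4 and 21.1 TPM) and CD14 (1.88 and 2.54 TPM) reached 1 TPM, and of 5 endothelial markers only KDR did so, in TRA2B KO (0.601 and 1.07 TPM). The summed mesenchymal markers lay at 7838 to 7915 TPM in the controls and at 6115 to 6389 TPM in TRA2B KO, and the summed epithelial markers at 373 to 386 and 307 to 325 TPM. Those of astrocyte and glioma lay at 602 to 663 and 764 to 790 TPM (exact permutation p = 0.1 each). In bulk RNA, fewer cells of a kind and less RNA per cell cannot be told apart.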

How the data were processed

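Poly(A)-selected, directional RNA-seq libraries were made by the authors from 3 replicates of each LN319 condition. The values are TPM that the authors deposited in 1 table per cell line, estimated with kallisto (version 0.48.0) and listed by gene name. STAR (version 2.7.3) and GRCh38 are also given in the submitters' processing notes, and Gencode v34 in the study's methods. The authors' own tests (limma-voom after edgeR scaling of counts) were not repeated, because TPM are not counts, and although the study's methods state a minimum depth per library, TPM do not give the reads behind each value, so no counting interval is given.

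For the present report, genes that reached 1 TPM in 4 or more of the 15 LN319 libraries were kept. Each library was scaled by a trimmed mean of its log ratios, without weights (30% of ratios and 5% of abundances trimmed), and log2(scaled TPM + 0.1) was fitted for all 5 conditions in limma (version 3.58.1, R 4.3.3) with a trend of variance on mean and Benjamini-Hochberg adjustment. The added 0.1 makes the fold changes of low genes smaller where every library has a value above 0. Where a library is listed at 0 TPM, the fold change depends on the value added and can be large. SE, p and adjusted p are those of limma, and "rose" and "fell" stand for an adjusted p under 0.05. For single values of a library an exact permutation test was used, which cannot go below 0.1 with 3 libraries against 3. Before use the fit was run on simulated data with independent noise for each gene and few changed genes. Those data lack the trend with transcript length and the share of changed genes seen here, so that run does not bear on them. No 2 libraries were identical, and 0 columns were without a sample.

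The genes named are TRA2A, TRA2B and the SR proteins, the genes with RT-PCR primers, the 15 up and 15 down protein-coding DEGs of largest fold change (no overlap, mean of at least 5 TPM in either group), the 5 of smallest p, 3 up and 3 down DEGs of other biotypes, up to 4 called members in each direction of each list, and 5 up and 5 down against TRA2A KO. All members and lists were chosen with earlier results of these data known. The 28 names in the form of a date are not used as gene names (27 of them were tested).

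Biotypes, positions, lengths and GC content came from Gencode v44 by symbol (33975 of 55904 names, and 1401 more by a RefSeq synonym). Only 56.6% of the up DEGs matched, so a check of length or GC content over the DEGs is void, and the trend with length is given for protein-coding genes only. Promoters came from RefSeq (GRCh38.p14) and guides from the study's supplement, placed on GRCh38. Alternatives were the added value, the filter, the scaling, the groups in the fit, a replicate block, the fold change limit, each library left out and, chosen after seeing the data, the trend with length and GC content removed by a spline (4 degrees of freedom each). Figures were drawn with matplotlib (version 3.10.9, Python 3.11.15).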

Additional observations from a re-analysis of the deposited data

Results flagged for a closer look

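For 16 of 192 named genes that could be compared, every TRA2B KO library of LN319 lay on one side of its controls and every TRA2B KO library of LN229 on the other side of its own. Many of the 192 were named because they were called or did not overlap in LN319, which fixes the LN319 side of this rule. No share over all genes is given, so the count of 16 is only a description. The difference between the lines was not tested, since each line has its own table, and TRA2B fell only to 66.0% of control in LN229. Of these 16, only TRA2A passed an adjusted p of 0.05 in limma in LN229. TRA2A had a log2 fold change of -0.349 in LN319 and 0.589 in LN229 (107 to 90.5 TPM and 109 to 169 TPM).

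Secreted proteins were among them. A2M had log2 fold changes of -1.47 in LN319 and 0.754 in LN229, ENPP2 of -1.42 and 0.857, IL11 of 0.546 and -1.22, and COL4A1 of 0.665 and -0.256. The gap in LN229 was narrow for A2M, with the highest control at 175.2 and the lowest KO library at 175.5 TPM. For ENPP2 these were 63.1 and 64.6 TPM. The p53 targets FDXR (0.293 and -0.131) and MDM2 (0.274 and -0.366) and the integrin ITGA5 (0.22 and -0.334) were higher in LN319 and lower in LN229, as were the enolase ENO2 (0.339 and -0.32) and the snoRNA host SNHG12 (0.201 and -0.71). The intraflagellar transport genes IFT57 (-0.445 and 0.229) and IFT52 (-0.436 and 0.161), the NRF2 targets AKR1C1 (-1.39 and 0.479) and FTH1 (-0.639 and 0.229), the cochaperone DNAJA1 (-0.601 and 0.0359) and the histone HIST1H1C (-0.395 and 0.507) were lower in LN319 and higher in LN229. AKR1C1 was at 1.35 TPM in the LN319 controls and at 71.4 TPM in those of LN229.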

How the results depend on the processing

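The count of DEGs (757) depended on how low values were treated. It was 357 with 1 TPM added in place of 0.1 and 331 with a minimum of 5 TPM. Without a limit on fold change it was 8231, and leaving out a library gave 633 (without replicate 1 of TRA2B KO) to 881 (without replicate 2 of Control KO). With the trend with length and GC content removed 473 DEGs were counted, but only over the 15766 genes with an annotation. The 757 include 253 up and 41 down DEGs without an annotation, so 473 and 757 are not over the same genes. Without a filter 42225 genes were tested, with 685 up and 276 down, and 547 of the 961 were among the 757. With quantile normalization 336 were up and 333 down, and 462 were shared. Against TRA2A KO the count of 1224 was 712 with 1 TPM added, 652 with a minimum of 5 TPM and 9102 without a limit on fold change, and ran from 1015 (without replicate 3 of TRA2A KO) to 1324 (without replicate 1). TRA2B kept its call in every alternative, and TRA2A lost it after quantile normalization (-0.18) and with the trend removed (-0.19).

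Of 3325 values of 223 named genes under the alternatives, 3055 kept direction and side of the threshold, 248 lost the call, 13 gained it and 9 turned direction, and 53 genes lost the call at least once. The direction turned in SRSF2 (0.16) and JUN (0.032) after quantile normalization, in SRSF6 without a filter (-0.036), in CNTRL with a minimum of 5 TPM (0.064), with the TPM as deposited (0.084) and when a library was left out (-0.096 to 0.039), and in KCNK1 when a library was left out (-0.64 to 0.0053). The cause was not tested.

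With the replicate number as a block there were 763 DEGs (588 up, 175 down), 1225 against TRA2A KO (792 up, 433 down), and log2 fold changes of -1.61 for TRA2B and -0.35 for TRA2A. The deviations of same-numbered TRA2B KO and Control KO libraries correlated by 0.0183, 0.0225 and -0.0407 across genes, and other pairs of conditions were not tested. Replicate 3 had the fewest genes at 1 TPM in Control KO (17318), TRA2A KO (17027), TRA2B-OE Control KO (17731) and TRA2B-OE TRA2A KO (17441). In TRA2B KO it had the most (18657). Whether the number stands for a shared batch is thus not settled. The block changed neither the TRA2B nor the TRA2A call. TPM do not give the reads behind a value, so it cannot be said how far counting noise sets the spread of low genes.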
